A study of Danio rerio with 4 samples.

Results

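The genes described here are 9 targets of the Notch pathway, hey1, hey2, her6, her9, her12, her15.1, her4.1, nrarpa and nrarpb, chosen by name from the 36351 genes in the lists deposited with the data. Each of the 9 symbols matched 1 row of those lists. The 4 libraries held GFP+ cells sorted from the dissected trunk, which contains the aorta-gonad-mesonephros (AGM) region, of zebrafish embryos at 26 hours post fertilisation (hpf). All embryos carried the Tg(kdrl:GFP) zn1 transgene, where GFP is driven by the promoter of kdrl, an endothelial receptor gene, so that the sort takes endothelial cells (ECs) and cells that recently came from them, together with some other cells. Each of the 4 groups was 1 library. They were WT, the miR-128 mutant without either genomic copy of the microRNA, and csnk1a1 g3′UTR and jag1b g3′UTR, in which WT embryos had been injected at the single-cell stage with guide RNAs and Cas9 mRNA against the miR-128 site in the 3′UTR of the named gene. Injected embryos are mosaic, and the number of embryos pooled per library is not used here. jag1b encodes a Notch ligand and csnk1a1 a kinase of the Wnt pathway.

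A Notch receptor that meets a ligand on a neighbouring cell is cut, and its inner part enters the nucleus, joins the factor Rbpj and switches on target genes. Best known among these are the genes of the Hairy/E(spl) family (hes genes in mammals, her genes in zebrafish) and of the related Hey family, which encode basic helix-loop-helix repressors, and the nrarp genes, whose small ankyrin-repeat proteins feed back on the pathway. In the zebrafish trunk, Notch signalling is required for arterial identity of the dorsal aorta and for the haemogenic ECs in its floor, from which nascent haematopoietic stem and progenitor cells (nHSPCs) emerge by the endothelial-to-haematopoietic transition (EHT). The study asked how miR-128 and its targets csnk1a1 and jag1b act on this process, and the 9 genes are among the readouts of the pathway in which jag1b is a ligand. In the aortic floor, the paper reports fewer cells with a high Notch reporter signal in jag1b g3′UTR and miR-128 mutant embryos. By qRT-PCR it reports lower levels of the Notch-responsive genes her1 and hes6. Those genes are not among the 9, and the difference between those measurements and the levels here was not tested.

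After filtering, 41588 of 43568 cell barcodes were kept, namely 12206, 9241, 9054 and 11087 for WT, miR-128 mutant, csnk1a1 g3′UTR and jag1b g3′UTR, with medians of 10518, 9611, 7724.5 and 5723 UMIs (unique molecular identifiers, each standing for 1 captured transcript) per cell. Pairs of libraries shared 26 to 55 barcodes, at most 0.479% of the smaller library. Levels are CPM, counts per 1000000, the UMIs of a gene over all UMIs summed over all cells of a class in 1 library. Cells were put in classes by marker UMIs, with none of the 9 genes among the markers. The classes held 289 to 805 arterial, 512 to 931 tip, 4497 to 6513 venous, 134 to 222 haemogenic and 349 to 497 nHSPC cells per library. The arterial and venous names were checked on genes outside the markers, and the other names rest on the markers of their gates. The venous and lymphatic receptor gene flt4 was at 421, 402, 388 and 455 CPM in venous cells of WT, miR-128 mutant, csnk1a1 g3′UTR and jag1b g3′UTR against 149, 132, 160 and 235 CPM in arterial cells, and the arterial ligand gene dll4 was at 105, 80.3, 134 and 196 CPM in venous cells against 237, 181, 257 and 493 CPM in arterial cells. The edited genes do not check the labels, since neither stood highest in its own library. csnk1a1 was at 350, 367, 365 and 365 CPM and jag1b at 6.92, 9.20, 5.98 and 6.56 CPM in all endothelial cells in the same order of libraries. By qRT-PCR on pools of embryos, the paper reports de-repression of each transcript after its own site was mutated, and of both in the miR-128 mutant. It had picked both genes among candidates from bulk RNA-seq of sorted kdrl+ tail ECs, miR-128 mutant against WT, at 26 hpf. The difference between those measurements and the levels here was not tested.

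Between classes, each library gave 1 sum per class, and the classes were compared over the 4 libraries in 1 edgeR quasi-likelihood fit with the library as a block and p-values adjusted over 19561 genes. A gene was called at an adjusted p below 0.05 and a fold of at least 1.5. The spread in this test is that between libraries of different groups. Between libraries there is no replicate, so ratios carry 95% intervals that cover counting error only, no test was run, and nothing separates an effect of a group from other differences between 2 preparations. The matrices of WT and the miR-128 mutant came from one Cell Ranger version and both g3′UTR matrices from a later one, so the version cannot be told apart from the injected groups.

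**Figure D1:**
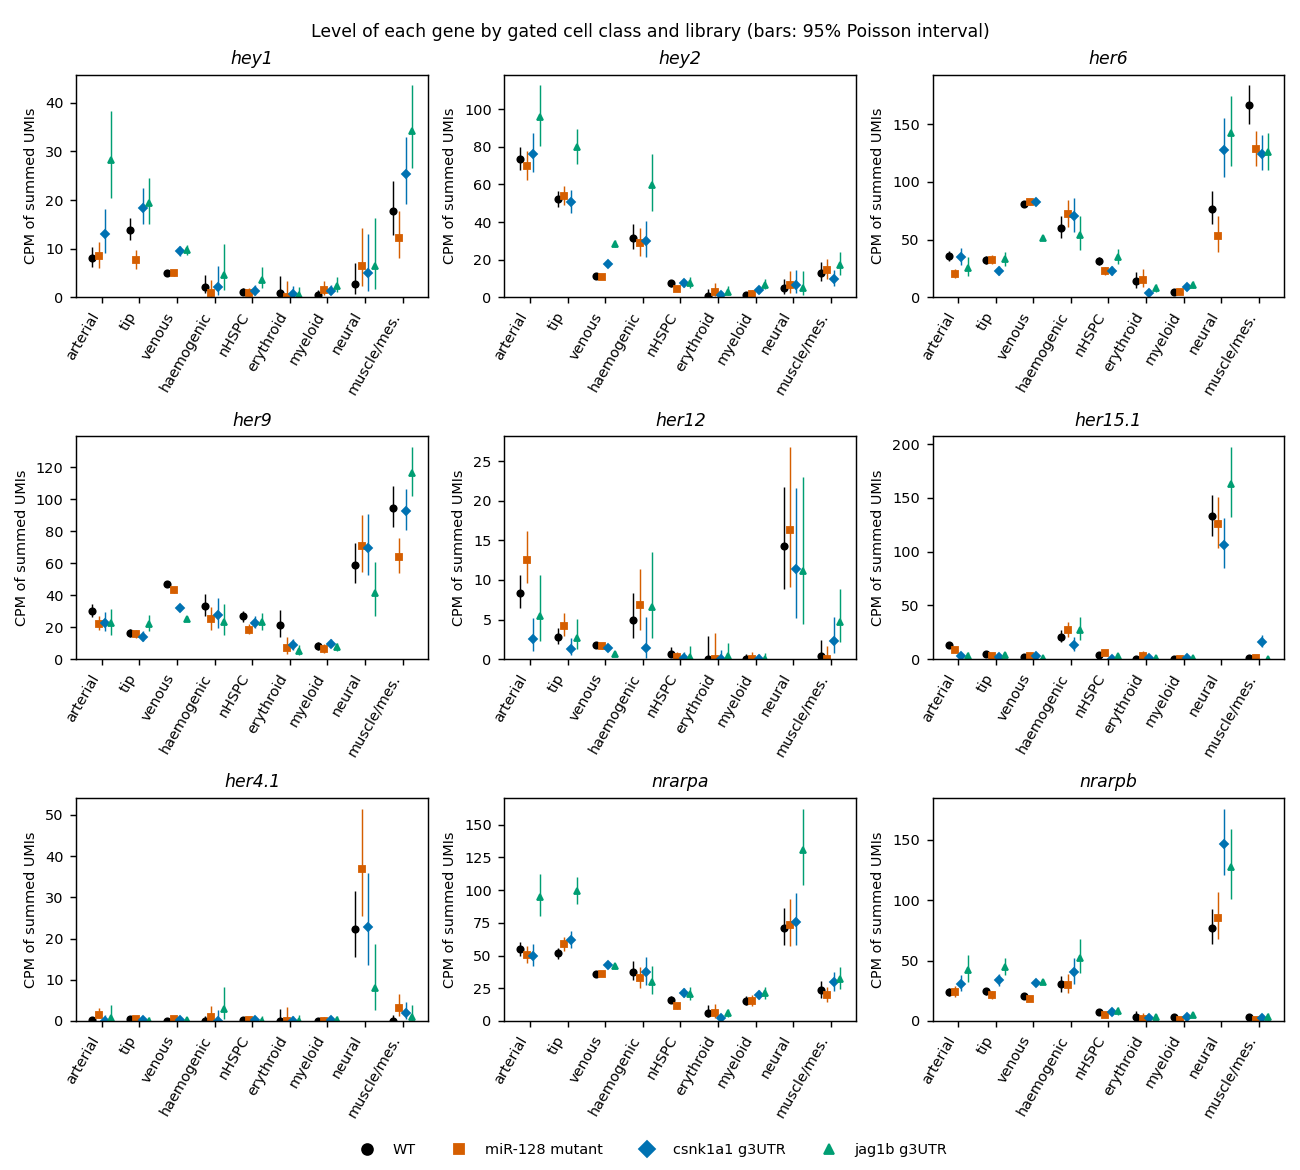
Level of the 9 genes in CPM of summed UMIs (y axis, a linear scale for each gene) in 9 gated cell classes (x axis), with 1 point per library and 95% Poisson intervals as bars. Among the 9 classes hey2 stood highest in arterial cells in all 4 libraries, and her6 and her9 stood higher in venous than in arterial cells. her15.1, her4.1 and nrarpb stood highest in neural cells. By the mean over libraries her12 and nrarpa did too, and hey1, her6 and her9 stood highest in muscle and mesenchyme cells.

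Both Hey genes were called higher in arterial than in venous cells. hey2, the gridlock gene of the zebrafish aorta, was at 73.7, 69.8, 76.4 and 95.7 CPM in arterial cells of WT, the miR-128 mutant, csnk1a1 g3′UTR and jag1b g3′UTR. In venous cells the hey2 levels were 11.3, 10.8, 17.8 and 28.5 CPM in that order. All 4 arterial sums lay above all 4 venous ones, and the log2 fold of arterial over venous was 2.29 (SE 0.15, adjusted p = 6.1e-14). Endothelial cells that passed no finer gate had 68.1, 65.2, 74.2 and 101 CPM of hey2, close to the arterial levels. Among the named classes tip cells, the leading cells of sprouting vessels, came second with 52.3, 54.1, 50.5 and 79.9 CPM of hey2. They were 0.726-fold the arterial level (adjusted p = 0.048), which falls short of a call at 1.5-fold. Haemogenic cells were next with 31.7, 28.7, 29.95 and 59.9 CPM, then venous cells, while nHSPCs had 7.35, 4.49, 7.46 and 7.45 CPM. The ranges of neighbouring classes in this order overlapped for arterial and tip cells and for tip and haemogenic cells, but not for venous cells and nHSPCs. Haemogenic and venous ranges shared no value, with 28.5 CPM in venous cells of jag1b g3′UTR just under 28.7 CPM in haemogenic cells of the miR-128 mutant.

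hey1, the other Hey gene among the 9, was at 7.99, 8.39, 13.0 and 28.3 CPM in arterial cells of WT, the miR-128 mutant, csnk1a1 g3′UTR and jag1b g3′UTR and at 5.01, 4.98, 9.56 and 9.63 CPM in venous cells. The arterial level was higher within every library, by a log2 fold of 0.80 (SE 0.18, adjusted p = 0.00074), but the ranges overlapped across libraries. Without jag1b g3′UTR, where the gap was widest, the log2 fold was 0.57 and no longer reached 1.5-fold (adjusted p = 0.023, from 0.0024 to 0.023 over the 4 omissions). In tip cells hey1 was at 13.9, 7.64, 18.4 and 19.4 CPM, above the arterial value in WT and csnk1a1 g3′UTR and below it in the other libraries, and the contrast gave no call (log2 fold 0.19, adjusted p = 0.68). In haemogenic cells it rested on 6, 2, 3 and 5 UMIs.

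her12 and her15.1, which belong to the branch of the family related to mammalian Hes5, were also called higher in arterial cells. her12 was at 8.37, 12.6, 2.54 and 5.39 CPM in arterial cells and at 1.83, 1.63, 1.35 and 0.69 CPM in venous cells of WT, the miR-128 mutant, csnk1a1 g3′UTR and jag1b g3′UTR. The arterial values lay above the venous ones without overlap, with a log2 fold of 2.30 (SE 0.29, adjusted p = 1.5e-07). her12 was the only one of the 9 genes called between tip and arterial cells, with tip levels of 2.79, 4.23, 1.29 and 2.73 CPM and a log2 fold of -1.43 (SE 0.31, adjusted p = 0.0032). That call was lost without WT (log2 fold -1.29, adjusted p = 0.10) and without the miR-128 mutant (log2 fold -1.27, adjusted p = 0.085), against a lowest adjusted p of 0.0043 over the 4 omissions. It was also lost when cells were gated after thinning to 3000 UMIs with lower marker thresholds (log2 fold -0.75, adjusted p = 0.47).

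her15.1 was at 13.3, 8.60, 2.90 and 2.70 CPM in arterial cells and at 2.31, 2.44, 2.87 and 0.80 CPM in venous cells in the same order of libraries. The arterial value was well above the venous one in WT and the miR-128 mutant, and in csnk1a1 g3′UTR both were alike, with a ratio of 1.01. The log2 fold was 1.80 (SE 0.38, adjusted p = 0.00030). Without WT it was 1.24 and the call was lost (adjusted p = 0.066, from 1.8e-05 to 0.066 over the 4 omissions).

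her6 and her9, the relatives of human HES1 and HES4, went the other way. her6 was at 35.6, 20.3, 34.8 and 25.6 CPM in arterial cells and at 81.2, 82.3, 82.7 and 51.4 CPM in venous cells of WT, the miR-128 mutant, csnk1a1 g3′UTR and jag1b g3′UTR. No arterial value reached a venous one, and the log2 fold of arterial over venous was -1.38 (SE 0.20, adjusted p = 1.3e-06). her9 was at 30.3, 22.2, 22.8 and 22.3 CPM in arterial cells and at 47.1, 43.4, 32.0 and 25.3 CPM in venous cells. The venous level of her9 was higher within each library, but the ranges overlapped, since venous cells of jag1b g3′UTR lay below arterial cells of WT. Its log2 fold was -0.63 (SE 0.17, adjusted p = 0.0035), just past 1.5-fold. Without the miR-128 mutant it was -0.50 and not called (adjusted p = 0.054, the highest over the 4 omissions, whose lowest was 0.00030), and with median-of-ratios factors it was -0.52 and under 1.5-fold (adjusted p = 0.017).

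Among the gated classes, the highest levels of her6 and her9 lay outside the vessels. Cells of the sort that passed the muscle and mesenchyme gate had 124 to 166 CPM of her6 and 63.9 to 116 CPM of her9, and neural cells had 53.1 to 142 and 41.5 to 70.4 CPM. This was not particular to her6 and her9. By the mean over libraries, hey1 was also highest in muscle and mesenchyme cells (22.4 CPM, with 14.8 CPM in tip cells). Neural cells were highest for her12 (13.3 CPM, with 7.22 CPM in arterial cells) and nrarpa (87.9 CPM, with 67.9 CPM in tip cells). They were also highest for nrarpb (109 CPM, with 38.25 CPM in haemogenic cells). The part of such cells in the endothelial sums was not tested, and the summed level of the muscle and mesenchyme list (8 genes, all with a UMI in venous cells of each library) was 74.9, 137, 246 and 312 CPM in venous cells and 52.9, 67.7, 559 and 454 CPM in arterial cells.

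Of the nrarp genes, the feedback genes of the pathway, nrarpa was called between vessel classes at the limit of the call and nrarpb was not. nrarpa was at 54.8, 50.5, 49.995 and 95.1 CPM in arterial cells and at 36.2, 35.7, 42.8 and 41.8 CPM in venous cells of WT, the miR-128 mutant, csnk1a1 g3′UTR and jag1b g3′UTR. The classes did not overlap, and the log2 fold was 0.59 (SE 0.13, adjusted p = 0.00073), a 1.504-fold difference at the border of the call. Without jag1b g3′UTR, whose arterial cells stood far above the others, it was 0.42 and under 1.5-fold (adjusted p = 0.018, the highest over the 4 omissions). Tip cells had 51.8, 58.7, 62.1 and 99.0 CPM of nrarpa and did not pass the test against arterial cells (log2 fold 0.11, adjusted p = 0.76). nrarpb was at 23.6, 23.9, 30.8 and 42.5 CPM in arterial and at 20.4, 18.3, 31.1 and 32.6 CPM in venous cells. Its ranges overlapped, and it was not called (log2 fold 0.20, adjusted p = 0.19).

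her4.1, a gene long used to report Notch activity in the zebrafish nervous system, was nearly absent from the vessel classes. In arterial cells it had 2, 7, 0 and 1 UMIs in WT, the miR-128 mutant, csnk1a1 g3′UTR and jag1b g3′UTR, and in haemogenic cells 0, 2, 0 and 3. The 0 of csnk1a1 g3′UTR arterial cells allows up to 1.09 CPM and that of WT haemogenic cells up to 1.07 CPM, each set by 3 UMIs. Neural cells of the sort had 22.4, 36.8, 22.7 and 7.97 CPM of her4.1, so the gene could be counted in these libraries. her4.1 passed no contrast between classes (for arterial over venous, log2 fold 1.42 with SE 0.75 and adjusted p = 0.15).

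In all, 5 of the 9 genes were called higher in arterial than in venous cells, 2 were called lower and 2 were not called. Of all genes tested, 10.4% were called higher in arterial cells and 14.2% lower, and the median log2 fold was 0.80 over the 9 genes and -0.04 over all genes. Between tip and arterial cells, where 2.21% of all genes were called higher in tip cells and 3.05% lower, 0 of the 9 genes were called higher, 1 lower and 8 neither. Beside that 0, the same edgeR fit gave 3678 of 19561 genes an unadjusted p under 0.05 in either direction, and DESeq2 called none of the 8 members it could test higher in tip cells.

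**Figure D2:**
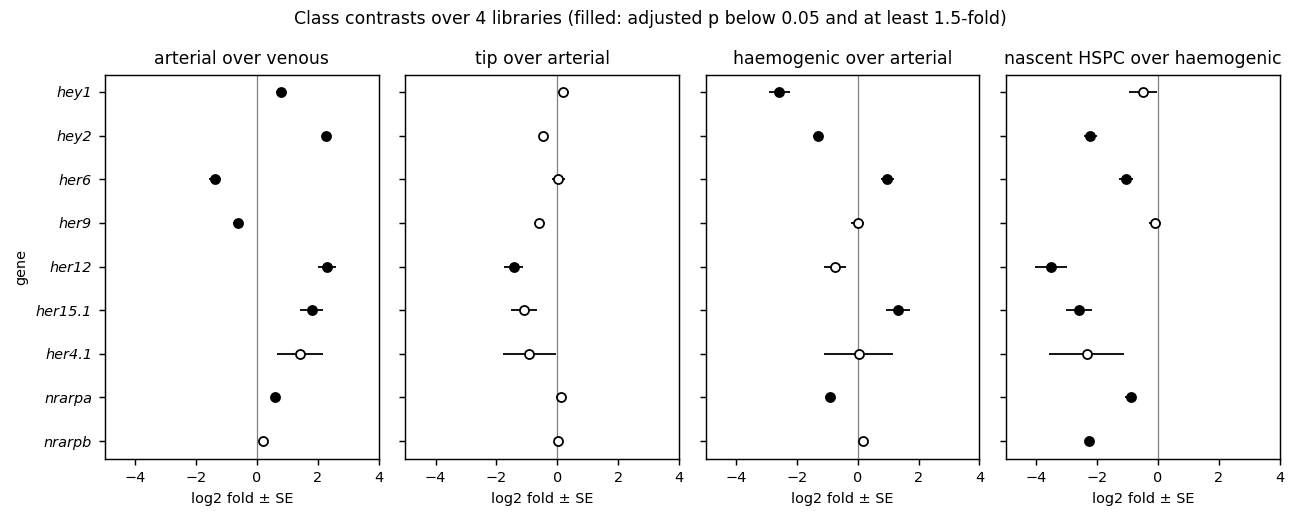
Log2 fold of the 9 genes in 4 contrasts between classes (x axis) with the standard error as a bar, over 4 libraries, filled where the gene was called. In the first panel hey2, her12, her15.1, hey1 and nrarpa lie to the right of 0 and her6 and her9 to the left, and in the last panel no gene is called to the right.

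The step from arterial to haemogenic cells split the genes again. Haemogenic cells are endothelial cells that hold UMIs of runx1, gata2b or gfi1aa, factors of the EHT. Against arterial cells, hey1 fell by 2.58 on the log2 scale (SE 0.34, adjusted p = 4.6e-07), hey2 by 1.30 (SE 0.17, adjusted p = 6.8e-07) and nrarpa by 0.91 (SE 0.16, adjusted p = 6.7e-05). nrarpa had 37.8, 32.6, 37.3 and 29.9 CPM in haemogenic cells of WT, the miR-128 mutant, csnk1a1 g3′UTR and jag1b g3′UTR, below all 4 arterial values. her6 was higher in haemogenic cells, at 60.3, 71.9, 70.1 and 54.3 CPM, without overlap with the arterial range (log2 fold 0.98, SE 0.23, adjusted p = 0.0014). her15.1 was higher as well, at 20.7, 26.7, 13.2 and 27.1 CPM, with a log2 fold of 1.33 (SE 0.40, adjusted p = 0.013). Its haemogenic value was above the arterial one in each of the 4 libraries, although the lowest of them, 13.2 CPM in csnk1a1 g3′UTR, was no higher than arterial cells of WT.

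The her15.1 call rested on few UMIs, 58, 55, 18 and 29 in haemogenic cells. It was lost without the miR-128 mutant (log2 fold 1.30, adjusted p = 0.078) and without jag1b g3′UTR (log2 fold 1.09, adjusted p = 0.050158), against a lowest adjusted p of 0.0056 over the 4 omissions, and under stricter gates (log2 fold 0.85, adjusted p = 0.11). her9, her12, her4.1 and nrarpb were not called. Among them nrarpb was at 30.3, 30.1, 40.2 and 52.4 CPM in haemogenic cells, above the arterial value in each library, with a log2 fold of 0.19 (SE 0.14, adjusted p = 0.35). her9 had a log2 fold of 0.00 (SE 0.21, adjusted p = 1). Altogether 2 of the 9 genes were called higher in haemogenic cells, where 8.71% of all genes were, and 3 lower, where 10.5% of all genes were.

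The haemogenic gate takes endothelial cells before they are sorted into arterial, tip or venous, and the venous list in haemogenic cells summed to 1467, 1049, 1699 and 2141 CPM against 644, 582, 543 and 587 CPM in arterial cells. Of the arterial list, haemogenic cells had 1240, 1126, 1284 and 1110 CPM and arterial cells 3465, 3142, 2830 and 2818 CPM. In each library, hey2 in haemogenic cells lay between its venous and arterial levels, and hey1 lay below its venous level. nrarpa was at 29.9 to 37.8 CPM in haemogenic cells and at 35.7 to 42.8 CPM in venous cells. The part of venous cells in the haemogenic values was not tested. This holds for her6, which was high in venous cells, and for the falls of hey2 and nrarpa. her15.1 was at 0.80 to 2.87 CPM in venous cells, under its lowest haemogenic value of 13.2 CPM.

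From haemogenic cells to nHSPCs, 6 of the 9 genes were called lower and none higher. hey2 fell by 2.23 on the log2 scale (SE 0.21, adjusted p = 3.2e-10), nrarpb by 2.26 (SE 0.15, adjusted p = 1.7e-13) and her12 by 3.51 (SE 0.53, adjusted p = 2.6e-06). The her12 fall rested on few UMIs, 14, 14, 2 and 7 in haemogenic cells and 6, 2, 1 and 1 in nHSPCs of WT, the miR-128 mutant, csnk1a1 g3′UTR and jag1b g3′UTR. In WT 85.7% of the haemogenic her12 UMIs came from 5 cells, and all 7 of jag1b g3′UTR lay in 1 cell. her15.1 fell by 2.61 (SE 0.42, adjusted p = 6.2e-06), from 13.2 to 27.1 CPM down to 0.31 to 5.26 CPM. her6 and nrarpa fell less, by 1.05 and 0.90, and her6 kept 31.2, 22.7, 23.0 and 34.5 CPM in nHSPCs of WT, the miR-128 mutant, csnk1a1 g3′UTR and jag1b g3′UTR. her9 had a log2 fold of -0.10 (SE 0.20, adjusted p = 0.73), with 26.7, 18.5, 22.7 and 22.9 CPM in nHSPCs against 33.2, 24.8, 27.8 and 23.4 CPM in haemogenic cells. hey1 and her4.1 rested on at most 12 UMIs in each nHSPC sum and were not called.

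This step was also wide for the transcriptome, with 17.2% of all genes called higher in nHSPCs and 16.9% lower, and the median log2 fold was -2.23 over the 9 genes and 0.02 over all genes. The endothelial marker cdh5 was at 0.195, 0.238, 0.212 and 0.154 of its haemogenic level in WT, the miR-128 mutant, csnk1a1 g3′UTR and jag1b g3′UTR. In the same order hey2 was at 0.232, 0.157, 0.249 and 0.124 and nrarpb at 0.243, 0.158, 0.178 and 0.153. cdh5 is a marker of the endothelial gate, which haemogenic cells had to pass and nHSPCs did not, so the gates can themselves lower its ratio. Whether the members fell more than endothelial transcripts in general was not tested. Beside the 0 genes called higher, edgeR gave 9271 genes an unadjusted p under 0.05 in either direction, and DESeq2 also called 0 of the 9 genes higher. nHSPC cells were the deeper ones, with a median of 17357 UMIs in WT against 11916 in haemogenic cells. In these pooled cells, a lower level can mean fewer cells with the transcript or fewer transcripts per cell.

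For hey2, unthinned shares were 24.3, 19.4, 21.8 and 26.9% of haemogenic cells and 7.36, 6.17, 6.84 and 5.73% of nHSPCs, with 1.65, 1.55, 1.28 and 1.78 UMIs per positive haemogenic cell and 1.78, 1.21, 1.41 and 1.25 per positive nHSPC.

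The share of cells with a UMI was also compared between vessel classes. After each cell was thinned to 3000 UMIs, 19.4, 16.1, 17.1 and 20.5% of arterial cells of WT, the miR-128 mutant, csnk1a1 g3′UTR and jag1b g3′UTR had a hey2 UMI, and unthinned shares were 40.2, 31.9, 33.0 and 32.5%. Thinned shares were 2.01, 2.72, 3.92 and 5.98% in venous cells, with 6.76, 6.19, 8.09 and 10.3% unthinned. Erythroid cells, which should lack the gene, gave a rough guide to the level that free RNA can reach. For hey2 the erythroid shares were 1.61, 0, 0 and 1.74% of 62, 63, 183 and 230 thinned cells. A 0 allows up to 4.76% in the miR-128 mutant and 1.64% in csnk1a1 g3′UTR. With so few erythroid cells, these shares do not separate from background the venous hey2 shares of WT and the miR-128 mutant or the shares in nHSPCs (1.17 to 2.25%). The venous shares of csnk1a1 g3′UTR and jag1b g3′UTR (intervals 3.35 to 4.55% and 5.34 to 6.66%) lay above the erythroid shares. By CPM, hey2 was at 0.783 to 2.92 in erythroid cells, under all venous (10.8 to 28.5) and nHSPC (4.49 to 7.46) values, though on 1 to 8 UMIs, with upper counting limits of 3.33 to 7.75 CPM. Erythroid cells were deeper before thinning, with a median of 22288.5 UMIs in WT against 8964 in arterial and 10540 in venous cells. Free RNA is a smaller part of a deeper cell, so erythroid values can understate the background of vessel cells. The endothelial list summed to 733, 508, 657 and 1167 CPM in erythroid cells of the 4 libraries, and the part of doublets in them was not tested.

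her6 was detected in 15.4, 16.3, 17.3 and 11.5% of thinned venous cells (31.8, 31.6, 30.8 and 18.5% unthinned) and in 4.79, 5.90, 6.72 and 5.13% of thinned arterial cells (10.8, 9.93, 15.3 and 9.69% unthinned). In erythroid cells it was detected in 1.61, 3.17, 1.09 and 3.04%. nrarpa was detected in 12.0, 13.6, 11.8 and 25.6% of thinned arterial cells (32.2, 29.97, 25.2 and 32.2% unthinned), with jag1b g3′UTR standing apart in the thinned shares. Its unthinned share was the same as in WT, and its nrarpa CPM value was the highest. The erythroid shares of nrarpa were 1.61, 3.17, 1.09 and 2.61%.

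**Figure D3:**
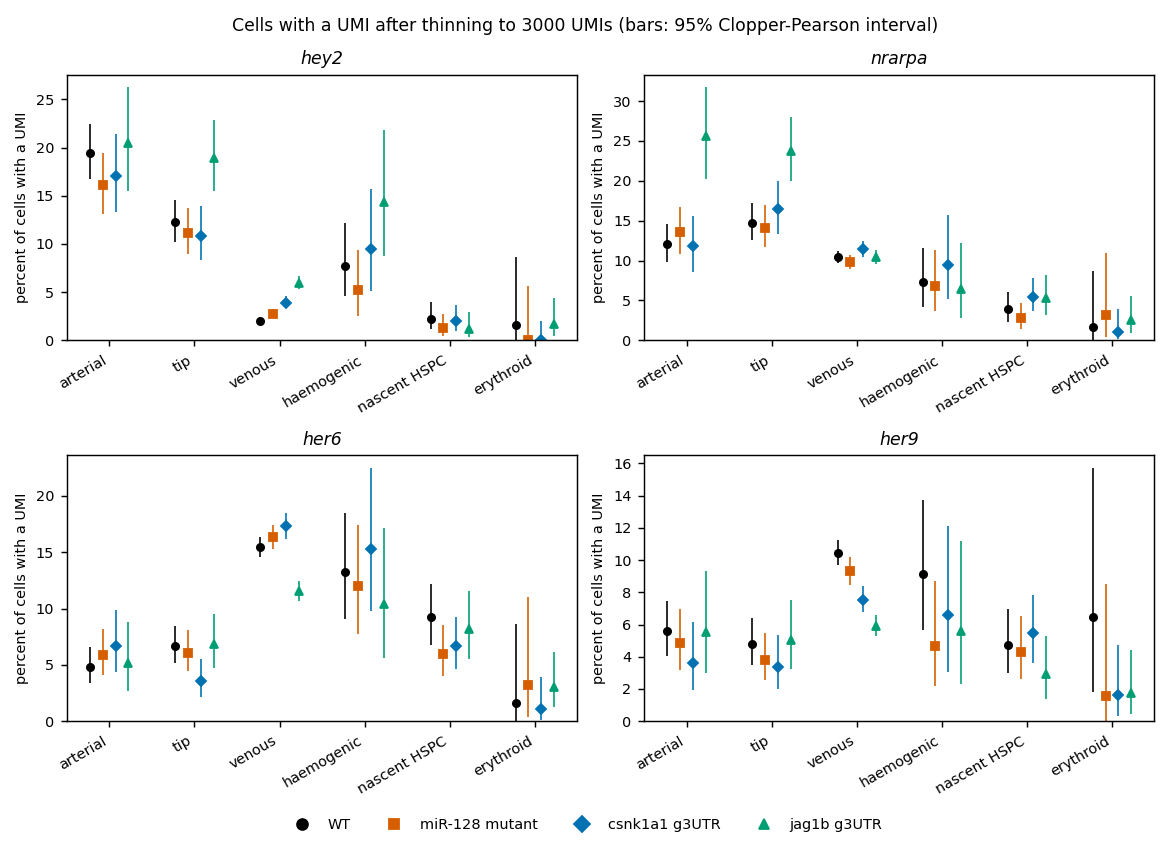
Percent of cells with at least 1 UMI after thinning to 3000 UMIs (y axis) for hey2, nrarpa, her6 and her9 in 6 classes (x axis), 1 point per library with 95% Clopper-Pearson intervals. hey2 shares in arterial cells lie between 16.1 and 20.5% in all 4 libraries and in venous cells between 2.01 and 5.98%.

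In arterial cells of WT a few cells held many of the her6 and her15.1 UMIs, while those of hey2 were spread. The 572 hey2 UMIs lay in 324 cells, at most 10 in a cell, and the 5 cells with most held 6.82% of them. The 103 her15.1 UMIs lay in 29 cells with 38 in a single cell, and 71.8% came from 5 cells. For her6, 276 UMIs lay in 87 cells with up to 48 in a cell, and 45.7% came from 5 cells. Without the UMIs that those cells held, the WT arterial level of her6 was 19.3 CPM and that of her15.1 was 3.74 CPM, in place of 35.6 and 13.3 CPM. In venous cells her6 was not so concentrated, with 5754 UMIs in 2074 cells of WT and 2.38% of them from 5 cells, against 5.125% for hey2. In venous cells UMIs per positive cell were 2.77, 2.58, 2.12 and 1.65 for her6 and 1.21, 1.16, 1.25 and 1.21 for nrarpb in WT, the miR-128 mutant, csnk1a1 g3′UTR and jag1b g3′UTR.

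Where a few cells hold the UMIs, the true error of a sum is wider than its counting interval. The class contrasts were therefore also run with each cell counted at most once for each of the 9 genes, an alternative added after the data had been seen. Of the 19 calls among the 9 genes in the 4 contrasts, 1 was lost, nrarpa in arterial over venous cells (log2 fold 0.41, adjusted p = 0.0077, under 1.5-fold). her4.1 then had too few counts to be tested.

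**Figure D4:**
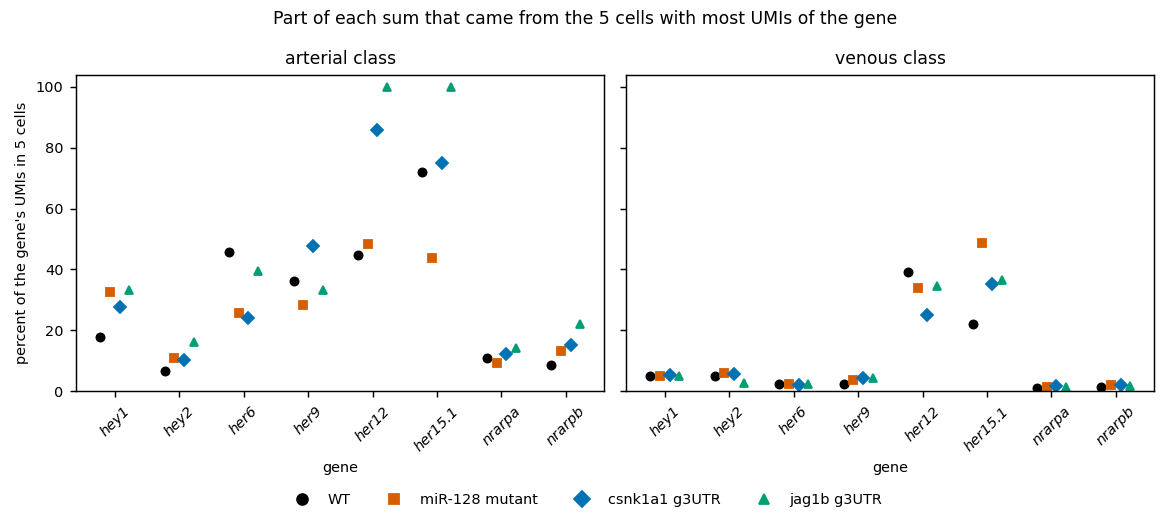
Percent of the UMIs of each gene that came from the 5 cells with most UMIs of it (y axis), for 8 genes (x axis) in arterial and venous cells, 1 point per library. In arterial cells of WT the value is 6.82% for hey2, 45.7% for her6 and 71.8% for her15.1, and with 4 positive cells each the jag1b g3′UTR values of her12 and her15.1 are 100%.

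Endothelial cells with her12 had her15.1 more often than those without, though most of them had none. Of all endothelial cells of WT with a her12 UMI, 28 of 158 (17.7%, Clopper-Pearson interval 12.1 to 24.6) also had a her15.1 UMI, against 198 of 10298 (1.92%) of those without her12. The shares were 16.5% against 1.72% in the miR-128 mutant, 11.0% against 1.52% in csnk1a1 g3′UTR and 16.1% against 0.73% in jag1b g3′UTR. Median depth in WT was 10926 UMIs in cells with her12 and 10365.5 in cells without. her6 and her9 also met in the same cells, with her9 in 32.1% of WT endothelial cells with her6 and 15.5% of those without, where median depths were 11938 and 9839 UMIs. In the RefSeq gene table (GRCz12tu assembly, used for names and order only) her12 stands next to a run of her4 copies, and her15.1 stands between her2 and her15.2. Reads of such near copies can be assigned to a wrong copy or dropped, so the levels of her4.1, her12 and her15.1 are uncertain to that extent.

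her15.1 is a neural gene as well, at 133, 126, 106 and 163 CPM in neural cells of WT, the miR-128 mutant, csnk1a1 g3′UTR and jag1b g3′UTR. The neural list (6 genes, 4 to 6 of them with a UMI in arterial cells) summed to 8.89, 5.03, 3.62 and 6.07 CPM in arterial, 17.1, 13.3, 17.9 and 17.3 CPM in venous and 7.84, 5.83, 7.31 and 21.5 CPM in haemogenic cells. In venous cells with a her15.1 UMI the list stood at 282, 177, 349 and 226 CPM, and in those without at 12.8, 11.4, 13.2 and 16.2 CPM. Of these 81, 46, 53 and 24 venous cells, 29, 15, 12 and 6 had a UMI of the neural list. In arterial cells of WT, the library without which the arterial call of her15.1 was lost, the list was at 85.9 CPM in the 29 cells with her15.1, 6 of them with a neural UMI, and at 5.51 CPM in those without. In the miR-128 mutant it was at 4.17 CPM in 25 arterial cells with her15.1 and at 5.08 CPM in the rest, and the 7 and 4 positive arterial cells of csnk1a1 g3′UTR and jag1b g3′UTR had none. In haemogenic cells with her15.1 the list was at 6.23, 14.2, 22.2 and 7.14 CPM in 24, 27, 8 and 14 cells, and in those without at 8.05, 4.51, 6.26 and 23.7 CPM, so that it was higher with her15.1 in the miR-128 mutant and csnk1a1 g3′UTR and lower in the other libraries. The part of neural cells or doublets in the her15.1 levels was not tested.

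Other target genes and the pathway itself gave the setting. Of 20 further her, hes, hey and related genes found in the files, 9 had enough UMIs to be tested. In arterial over venous, 4 of the 9 were called higher, her2 (log2 fold 2.53), her8a (2.02), heyl (1.79) and hes6 (0.61), and 3 lower, bhlhe40 (-3.13), bhlhe41 (-2.82) and lfng (-1.77), the last a glycosyltransferase that tunes the response of Notch to its ligands. Their median log2 fold was 0.70. In tip over arterial her8a (-1.51) and lfng (-0.61) were called lower, and in haemogenic over arterial 3 were called higher (her8a 1.03, bhlhe40 1.38 and lfng 0.64) and 1 lower (heyl -2.93). In nHSPCs over haemogenic cells hes6, a family member that in mice counters Hes1, was called higher (log2 fold 2.62) and her2, her8a and lfng lower.

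helt was also called in that last contrast, with 98, 44, 55 and 25 UMIs in nHSPCs and 0 in haemogenic cells of all 4 libraries. By a floor of 3 UMIs in each library it was at least 10.5-, 3.88-, 3.90- and 2.65-fold higher in nHSPCs of WT, the miR-128 mutant, csnk1a1 g3′UTR and jag1b g3′UTR. The files thus held a her-related gene that was counted in nHSPCs and not in haemogenic cells.

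Of 10 ligand, receptor and cofactor genes, 6 were called higher in arterial than in venous cells. Receptors notch3 (log2 fold 2.68) and notch1b (2.50) and ligands dlc (1.77), dll4 (1.12), jag2b (1.11) and jag1b (0.65) made up the 6, with a median log2 fold of 0.88 over the 10, and rbpja, rbpjb, jag1a and notch1a were not called. In tip over arterial notch3, dlc and jag1b were called lower. In haemogenic over arterial dll4, jag2b, notch1a and notch1b were called lower, and in nHSPCs over haemogenic cells 7 were called lower. Of all genes tested, 10.4% were called higher and 14.2% lower in arterial over venous cells, and 3.05% lower in tip over arterial cells. In haemogenic over arterial cells 8.71% were called higher and 10.5% lower, and in nHSPCs over haemogenic cells 17.2% and 16.9%. The lists of pathway genes and other targets were chosen with results of these data known, so their counts are a description.

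The genes whose levels followed each member most closely were sought over the 28 class and library sums among 4710 genes, as a description, since sums of 1 library share depth and preparation. hey2 was followed best by ndnf (Pearson r 0.976), daam1a and nxn, nrarpa by cers2a (0.970) and nrarpb by TTC28 (0.976), FAT4 and smo. hey1 was followed by qki2 (0.959), her12 by crlf1a (0.899) with vegfc among the first 5, and her15.1 by fbln2 (0.899). her6 was followed by mfap2 (0.939) and her9 by CR383676.1 (0.907), with her6 itself among the first 5 for her9 (0.884), and her4.1 had no close follower (zc3h11a, 0.670). Among the 9 genes, hey2 and nrarpb (0.907), hey2 and nrarpa (0.895) and her6 and her9 (0.884) ran closest, while hey1 and her15.1 had an r of 0.05.

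Between libraries, the question was whether the targets of Notch stood apart where miR-128 or its site in a target was altered. In the miR-128 mutant hey2, nrarpa and nrarpb were not past 1.5-fold in any of the 4 endothelial classes. The hey2 ratio to WT was 0.948 (0.826 to 1.09) in arterial and 0.959 (0.856 to 1.07) in venous cells, and nrarpa and nrarpb lay between 0.861 and 1.13 in the 4 endothelial classes. In arterial cells 3 of 8 measured members were past 1.5-fold, where 16.8% of all genes were. These were her12 at 1.503 (1.04 to 2.17), her6 at 0.572 (0.449 to 0.724) and her15.1 at 0.648 (0.440 to 0.939). Much of the her6 gap came from few WT cells, since without the UMIs of the 5 cells with most her6 the arterial levels were 19.3 CPM in WT and 15.101 CPM in the miR-128 mutant, and the thinned share of her6-positive cells was 4.79% in WT and 5.90% in the mutant. For her15.1 the direction turned without the UMIs of the 5 cells with most, at 3.74 CPM in WT and 4.82 CPM in the mutant, and 29 of 805 and 25 of 574 cells were positive.

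In venous cells, 1 of 9 members was past 1.5-fold in the miR-128 mutant, where 19.7% of all genes were. It was her4.1, with 23 UMIs against 1 and a ratio of 34.5 (5.61 to 1422), and 21 of the 23 lay in a single cell. In tip cells 3 of 8 members were past 1.5-fold, where 15.5% of all genes were, her12 at 1.52 (0.918 to 2.53), her15.1 at 0.618 (0.377 to 0.991) and hey1. The her12 UMIs lay in 15 of 931 tip cells of WT and 12 of 723 of the mutant. Without the UMIs of the 5 cells with most, the direction of her12 turned, at 0.957 CPM in WT and 0.823 CPM in the mutant. That of her15.1 stayed, at 3.31 and 1.29 CPM. hey1 stood at 0.549 of WT (0.405 to 0.737), with 7.64 against 13.9 CPM, and the thinned shares of hey1-positive tip cells were 1.98 and 4.49% (8.16 and 13.3% unthinned). In nHSPCs 2 of 6 members were past 1.5-fold, both lower, where 8.19% of all genes were lower and 15.6% past it in either direction. hey2 was at 0.611 (0.393 to 0.937) and nrarpb at 0.646 (0.419 to 0.983) of WT, on 35 and 37 UMIs in the mutant, and nrarpa at 0.691 (0.522 to 0.911). In WT 40.6% of the nHSPC hey2 UMIs came from 5 cells. Without the UMIs of the 5 cells with most, hey2 stood at 4.37 CPM in WT and 3.08 CPM in the mutant, and nrarpb at 5.86 and 3.47 CPM. hey2 was detected in 36 of 489 WT and 29 of 470 mutant cells.

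In csnk1a1 g3′UTR hey1 stood above WT and the Hes5-like genes below it in arterial cells, and both comparisons of g3′UTR libraries with WT share the WT cells. In venous cells 3 of 8 members were past 1.5-fold, all higher. They were hey1 at 1.91 (1.64 to 2.22), hey2 at 1.57 (1.41 to 1.75) and nrarpb at 1.52 (1.41 to 1.65). Of all genes, 19.9% were past 1.5-fold higher in venous cells and 26.8% in either direction. In arterial cells hey1 was at 1.63 (1.05 to 2.50), and her12 and her15.1 were at 0.303 (0.117 to 0.660) and 0.218 (0.0918 to 0.447) on 7 and 8 UMIs, with 23.6% of all genes past 1.5-fold. hey1 was at 12.2 to 34.3 CPM in muscle and mesenchyme cells, whose list in arterial cells summed to 559 CPM here, 454 CPM in jag1b g3′UTR and 52.9 CPM in WT, and the part of such cells in the hey1 ratios was not tested. The median log2 ratio of all genes was 0.16 in venous and 0.08 in arterial cells. Ratios were also scaled by median-of-ratios factors, the median offset of each library over genes counted in all of them. With this shift (0.17 on the log2 scale in venous cells), only hey1 stayed past 1.5-fold higher in venous cells, at 1.70. her9 and her12 then fell past 1.5-fold lower, at 0.604 and 0.654, where 13.7% of all genes were past 1.5-fold higher and 10.6% lower. her15.1 in nHSPCs was 0.0731 of WT (0.00854 to 0.284) on 2 UMIs, but 89.2% of the 37 WT UMIs came from 5 cells and 21 from a single cell. Without the UMIs of those 5 cells, WT stood at 0.459 CPM beside 0.311 CPM in csnk1a1 g3′UTR.

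jag1b g3′UTR, the library edited at the site in a Notch ligand, was also the shallowest, with a median of 5723 UMIs per cell. It had the largest share of all genes past 1.5-fold from WT in every class compared. Neural cells (42.2%) and muscle and mesenchyme cells (42.7%) were among these classes. In vessel cells the members went both ways. In venous cells hey2 was at 2.53 of WT (2.30 to 2.77), hey1 at 1.92 (1.66 to 2.23) and nrarpb at 1.60 (1.48 to 1.73), so that 3 of 8 members were past 1.5-fold higher, where 37.7% of all genes were. In the same cells her6 was at 0.634 (0.602 to 0.667), her9 at 0.538 (0.4999 to 0.578), her12 at 0.378 (0.238 to 0.579) and her15.1 at 0.346 (0.226 to 0.513), so that 4 of 8 were past 1.5-fold lower, where 7.37% of all genes were. The median log2 ratio of all genes in venous cells was 0.36. Scaled by median-of-ratios factors (a log2 shift of 0.34), hey2 was at 1.99, hey1 at 1.51, nrarpb at 1.26 and nrarpa at 0.908. The 4 lower genes were at 0.272 to 0.499. On that scale 2 of 8 members were past 1.5-fold higher, where 22.1% of all genes were, and 4 of 8 lower, where 19% of all genes were.

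In arterial cells of jag1b g3′UTR hey1 was at 3.55 of WT (2.34 to 5.33), nrarpb at 1.80 (1.33 to 2.41), nrarpa at 1.74 (1.42 to 2.11) and hey2 at 1.30 (1.07 to 1.56). In this class 3 of 8 members were past 1.5-fold higher, where 29.3% of all genes were, and 2 lower (her12 at 0.644 and her15.1 at 0.203, on 8 and 4 UMIs), where 12.5% of all genes were. her6 and her9 were at 0.721 (0.499 to 1.01) and 0.735 (0.494 to 1.06), intervals that include 1. Scaled by median-of-ratios factors (a log2 shift of 0.18), they were at 0.635 and 0.648, past 1.5-fold. On that scale 3 of 8 members were higher, where 21.7% of all genes were, and 4 of 8 lower, where 20% of all genes were. In WT arterial cells, 5 cells held 45.7% of the her6 UMIs, and 36.2% of the her9 UMIs likewise came from 5 cells. Without those UMIs WT stood at 19.3 CPM for each gene, beside 25.6 and 22.3 CPM from all arterial cells of jag1b g3′UTR. In tip cells nrarpa was at 1.91 (1.67 to 2.18), nrarpb at 1.82 (1.49 to 2.22) and hey2 at 1.53 (1.32 to 1.76), while her6 was at 1.02 (0.822 to 1.26) and her9 at 1.37 (1.04 to 1.79). Scaled by median-of-ratios factors (a log2 shift of 0.26), hey2 was at 1.27 and her9 at 1.14. In haemogenic cells hey2 was at 1.89 (1.35 to 2.63) and nrarpb at 1.73 (1.21 to 2.45), and nrarpa at 0.792 (0.516 to 1.19). The her6 ratio was thus lowest in venous cells among these 4 classes, and the difference between classes was not tested.

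Other values moved with this library. The junction gene cdh5 was at 2169 CPM in venous cells of jag1b g3′UTR and at 879 CPM in WT, and the haemoglobin gene hbae3, which marks free RNA of red cells, was at 168 and 26.0 CPM. The muscle and mesenchyme list was at 312 CPM in venous cells of jag1b g3′UTR and at 74.9 CPM in WT. The part of such cells, which were high in her6 and her9, in the ratios of these genes was not tested. Against csnk1a1 g3′UTR, the other injected library and the one with the same Cell Ranger version, hey2 in venous cells was at 1.61 (1.45 to 1.77), her6 at 0.622 (0.587 to 0.659), her9 at 0.791 (0.725 to 0.863), her12 at 0.514 (0.306 to 0.844), her15.1 at 0.279 (0.179 to 0.422), hey1 at 1.01 (0.866 to 1.17) and nrarpb at 1.05 (0.967 to 1.14). Thus 1 of 8 members was past 1.5-fold higher and 3 lower, where 20% and 5.19% of all genes were. Scaled by median-of-ratios factors (a log2 shift of 0.18), hey2 was at 1.42. On that scale 0 members were past 1.5-fold higher and 3 lower, where 13.2% and 9.32% of all genes were. In arterial cells hey1 was at 2.17 (1.36 to 3.49), nrarpa at 1.90 (1.49 to 2.42) and nrarpb at 1.38 (0.980 to 1.93). Between the injected libraries, hey1 and nrarpb of venous cells thus differed by less than their counting intervals, and hey2 and her6 by more.

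**Figure D5:**
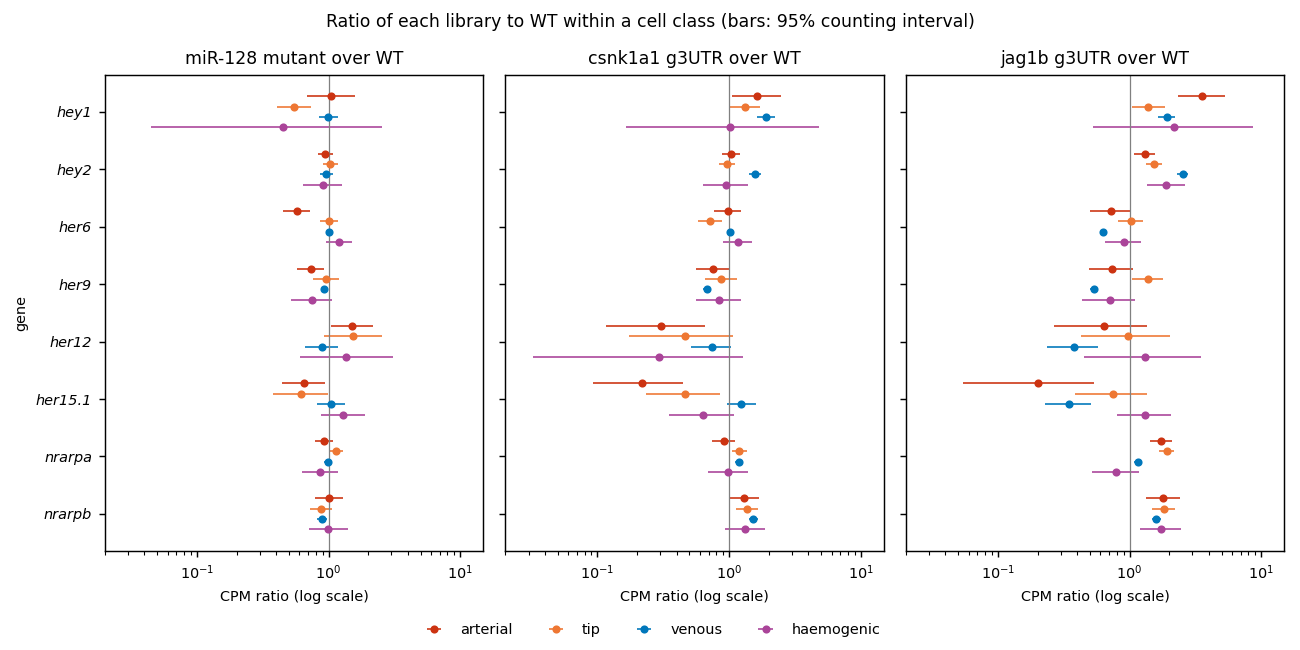
Ratio of the CPM of each mutant library to WT (x axis, log scale) for 8 genes (y axis) in arterial, tip, venous and haemogenic cells, with 95% counting intervals as bars. In venous cells of jag1b g3′UTR hey2 lies at 2.53 and her6 at 0.634, and in the miR-128 mutant both lie near 1 (0.959 and 1.01).

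The arterial bias of hey2 was narrower in both g3′UTR libraries. Within a library, WT had an arterial over venous ratio of hey2 of 6.53 (5.85 to 7.28) and the miR-128 mutant one of 6.45 (5.61 to 7.42). The ratio was 4.31 (3.67 to 5.04) for csnk1a1 g3′UTR and 3.36 (2.80 to 4.005) for jag1b g3′UTR. notch3 ran the same way, with 9.65, 8.09, 4.94 and 4.89, and dll4 did not, with 2.26, 2.25, 1.93 and 2.51. The venous bias of the check gene flt4 was also narrower in both g3′UTR libraries, with arterial over venous ratios of 0.354, 0.329, 0.412 and 0.517. Beside these ratios, the venous hey2 level was at 1.57 of WT in csnk1a1 g3′UTR and 2.53 in jag1b g3′UTR, and its arterial level was at 1.04 of WT in csnk1a1 g3′UTR and 1.30 in jag1b g3′UTR. The arterial marker list in venous cells summed to 624, 647, 599 and 492 CPM in that order, and in arterial cells to 3465, 3142, 2830 and 2818 CPM. In venous cells notch3 was at 11.0, 12.6, 27.7 and 33.2 CPM, dlc at 8.87, 8.24, 16.1 and 31.8 CPM and dll4 at 105, 80.3, 134 and 196 CPM. The part of arterial cells in the venous gate was not tested. The difference between libraries in this bias was not tested.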

How the data were processed

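UMI counts of GFP+ cells (10x 3′ v3.1) were analysed from 4 libraries, 1 per group. The deposited matrices hold filtered, raw UMI counts that the authors made with Cell Ranger on a gene annotation with corrected 3′UTRs. Per the file headers, the version was 5.0.0 for WT and the miR-128 mutant and 6.0.1 for both g3′UTR libraries. The submitters' processing notes also name Seurat. The genome build is not given in the sources used here, and no coordinates or sequences are printed.

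Cells with at least 200 genes, at most 35000 UMIs and at most 20% mitochondrial UMIs were kept. The limits on genes and UMIs follow the study, which treats cells above that UMI limit as doublets, and the mitochondrial limit was set here. Cells were gated by marker UMIs into erythroid, myeloid, nHSPC, neural, muscle and mesenchyme, haemogenic, tip, arterial and venous classes, in that order. Endothelial cells that passed no finer gate (15.2 to 17.7% of kept cells) entered the endothelial sums only.

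Class sums (28, from 7 classes and 4 libraries) were compared with edgeR 4.0.16 (R 4.3.3, TMM factors, quasi-likelihood test, Benjamini-Hochberg adjustment) over genes with at least 20 UMIs and 5 UMIs in at least 4 sums, which all 9 genes passed. Scripts were tested on simulated data. Library ratios used genes with at least 20 UMIs in the pair. Intervals are 95% (Clopper-Pearson for shares, exact Poisson for levels, conditional binomial for ratios). Shares were also taken after thinning each cell to 3000 UMIs, which left out 892, 386, 854 and 2331 shallower cells of WT, the miR-128 mutant, csnk1a1 g3′UTR and jag1b g3′UTR. Alternatives were DESeq2 1.42.0, other factors, no filter, omission of each library, 2-class fits, other gates, removal of the highest Scrublet scores (scanpy 1.11.5), median-of-ratios scaling and means over cells. The gates on thinned cells also used lower marker thresholds for endothelial, haemogenic, nHSPC, erythroid and myeloid cells and left out cells under 3000 UMIs. Shifts under them cannot be credited to thinning alone. Named genes were the 9, the fixed lists of other targets and pathway genes past the test, and the 5 most alike genes of each member by Pearson r of log2(CPM + 5) at a mean of at least 20 CPM. flt4 and hbae3 were fixed as checks of the classes, and csnk1a1 and cdh5 were added after their values were seen. The members, gates and lists were chosen with earlier results of these data known.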

Additional observations from a re-analysis of the deposited data

Results flagged for a closer look

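For 3 genes, the ratio of the same pair of libraries went in opposite directions in different classes, past 1.5-fold each way. The difference between classes was not tested in any of these cases. her6 in jag1b g3′UTR was at 0.634 of WT in venous cells and at 1.85 of WT in neural cells. In neural cells 71.9% of the jag1b g3′UTR her6 UMIs came from 5 cells, and without the UMIs of the 5 cells with most the levels were 39.9 CPM in jag1b g3′UTR and 42.1 CPM in WT. Against csnk1a1 g3′UTR, her6 in jag1b g3′UTR was at 0.622 in venous cells and at 1.502 in nHSPCs, where the levels without the 5 cells with most were 21.4 and 17.4 CPM. her9 in jag1b g3′UTR was at 1.58 of csnk1a1 g3′UTR in tip cells and at 0.597 in neural cells. Without the 5 cells with most her9, the levels in jag1b g3′UTR and csnk1a1 g3′UTR were 15.002 and 7.92 CPM in tip cells and 17.5 and 21.5 CPM in neural cells. her15.1 in jag1b g3′UTR was at 0.279 of csnk1a1 g3′UTR in venous cells, at 2.06 in haemogenic cells and at 1.53 in neural cells. Without the 5 cells with most, its levels in the same order were 0.507 and 1.86 CPM, 8.42 and 2.92 CPM, and 95.7 and 68.2 CPM. The values in neural cells rest on 94 cells in csnk1a1 g3′UTR and 79 in jag1b g3′UTR.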

How the results depend on the processing

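Of 403 values of member contrasts under the alternatives, 360 kept their direction and their side of the call, 7 gained a call, 17 lost one and 19 lay on the other side of 0, all 19 of them uncalled both as reported and under the alternative. In tip over arterial cells these were nrarpb with DESeq2 (-0.00056), median-of-ratios factors (-0.00084), the 2-class fit (-0.0098), gates on thinned cells (-0.043), stricter gates (-0.22) and each cell counted once (-0.047), her6 under stricter gates (-0.16), without the highest Scrublet scores (-0.013) and with each cell counted once (-0.13), and hey1 and nrarpa under stricter gates (-0.16 and -0.35). In haemogenic over arterial cells they were her12 (0.0088) and nrarpb (-0.10) with gates on thinned cells and nrarpb under stricter gates (-0.30), and in nHSPCs over haemogenic cells hey1 under stricter gates (0.83). Leaving out 1 library in tip over arterial cells gave -0.14 to 0.22 for her6, -0.036 to 0.45 for hey1 and -0.013 to 0.13 for nrarpb. Of 899 library ratios 6 reversed and 118 moved, and 168 of 900 levels and 131 of 180 shares moved, by more than the counting interval. Under stricter gates her12 in tip cells was at 2.43 of WT in csnk1a1 g3′UTR, her9 in tip cells was at 0.534 of csnk1a1 g3′UTR in jag1b g3′UTR and her15.1 in nHSPCs was at 3.74 of WT in jag1b g3′UTR (1.86 with gates on thinned cells). her6 in nHSPCs of jag1b g3′UTR was at 0.928 of csnk1a1 g3′UTR without the highest Scrublet scores, and her4.1 in endothelial cells of csnk1a1 g3′UTR was at 0.697 of WT as a mean over cells. The count of genes called higher in tip over arterial cells (433) was 188 with gates on thinned cells and 31 under stricter gates, and that of genes called lower (596) was 187 under stricter gates. Leaving out 1 library gave 261 to 506 and 268 to 571. The count called higher in haemogenic over arterial cells (1704) was 2674 under stricter gates. The cause of these shifts was not tested, except that stricter gates left 62 to 152 tip cells per library. Cells that failed the stricter tip or haemogenic gate could pass a later gate, so the arterial class was not always smaller. It held 939, 694, 399 and 265 cells of WT, the miR-128 mutant, csnk1a1 g3′UTR and jag1b g3′UTR, in place of 805, 574, 385 and 289.

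Calls of members beyond those given above were lost for nrarpa in arterial over venous cells without the filter (log2 fold 0.52), in the 2-class fit (0.56) and without the highest Scrublet scores (0.58), for her9 there with DESeq2 (-0.52), and for nrarpa in nHSPCs over haemogenic cells under stricter gates (-0.54). Calls were gained for her15.1 in tip over arterial cells without the filter (-1.09) and in the 2-class fit (-1.10), for her9 there in the 2-class fit (-0.64) and without jag1b g3′UTR (-0.72), for her12 in haemogenic over arterial cells in the 2-class fit (-0.71) and under stricter gates (-2.01), and for hey1 in nHSPCs over haemogenic cells with gates on thinned cells (-1.30). No paired analysis was possible because each group has 1 library, as far as comparisons between libraries go, while classes of 1 library were paired by the library block of the class contrasts. her12, her15.1 and her4.1 rest on few UMIs in few cells, and depth limits what can be said of them.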
